A study of Mus musculus with 6 samples.

Results

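The 10 genes described here encode the core of Nodal signalling: the ligand Nodal, its co-receptor Tdgf1 (Cripto), the receptors Acvr1b, Acvr2a and Acvr2b, the effectors Smad2 and Smad3, and the feedback inhibitors Lefty1, Lefty2 and Smad7. They were picked out by symbol, with no threshold on a value but with earlier results of these data known. Each symbol matched 1 of the 51912 gene rows of the count table. R1 mouse embryonic stem cells, an established line, were kept in the naive state of pluripotency in 2iLIF medium. They were then moved to N2B27, which contains no serum, together with 100 ng/ml FGF2, and polyadenylated RNA was sequenced after 24 h in 3 libraries and after 48 h in 3 libraries. Both groups therefore share the cell line, the naive state at the start, the change of medium and the growth factor. Time is the only difference that the labels give, and a batch that went with time could not be told apart from it. Cells before the change of medium, or in N2B27 without FGF2, were not analysed here, so FGF2, the medium and time in culture cannot be told apart. Whether the 3 libraries of a time came from separate cultures is not in the labels, so p-values measure the spread between these libraries, which may be technical.

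Nodal is a secreted ligand of the TGF-beta superfamily that acts in the early epiblast, where it helps to hold cells in a pluripotent state and later induces mesoderm and endoderm. Together with the membrane-anchored co-receptor Cripto it binds a type II activin receptor and the type I receptor ALK4, the product of Acvr1b. The active type I receptor phosphorylates SMAD2 and SMAD3, which enter the nucleus with SMAD4 and act with partners such as FOXH1. The pathway induces its own antagonists: the LEFTY proteins block the ligand and co-receptor outside the cell, and SMAD7 blocks the type I receptor from inside. Nodal and the Lefty genes are themselves textbook targets of the pathway.

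Library totals lay between 19574969 and 23133148 estimated counts, and the 10 genes together took 0.0689% to 0.0724% of the counts at 24 h and 0.0504% to 0.0515% at 48 h. The summed level of 12 pluripotent cell markers was 4414 to 4511 CPM (counts scaled to library size) at 24 h and 4416 to 4477 CPM at 48 h, while 6 of the 12 rose and 6 fell by edgeR adjusted p under 0.05, so the flat sum hides opposite shifts. Genes of naive cells were lower at 48 h, with log2 fold changes of -2.17 for Klf4, -1.99 for Nanog, -1.47 for Esrrb and -1.06 for Zfp42. Genes of formative and primed cells were higher, with 4.63 for Fgf5, 3.79 for Pou3f1, 3.35 for Dnmt3b and 1.74 for Otx2. Pou5f1 and Sox2, shared by both states, were at -0.07 and -0.37, and both passed the test. The remaining markers of the list, Utf1 and Dppa4, rose by 0.60 and 0.37. The sum of 7 fibroblast markers, which would show feeder cells, was 4.46 to 6.31 CPM over all libraries. Postn and Lum were at 0, and Col1a2 and Col3a1 had at most 9 counts in a library. Col1a1 had 4 to 30 counts and fell (log2 fold change -1.76, edgeR adjusted p = 0.000654). Twist1 had 43 to 87 counts and rose (0.73, adjusted p = 0.00102), and Thy1 had 20 to 42 and did not pass the test. The sum of 8 primitive endoderm markers was 49.8 to 58.2 CPM at 24 h and 16.5 to 17.2 CPM at 48 h. Most of it was Lama1. Gata4 had 97 to 148 counts in a 24 h library and 45 to 54 in a 48 h library (log2 fold change -1.38, edgeR adjusted p = 4.89e-07), Dab2 had 49 to 73 counts in every library and did not pass the test, and Gata6 had 0 to 9. The sum of 6 trophoblast markers was 23.2 to 25.4 CPM at 24 h and 11.95 to 15.6 CPM at 48 h, nearly all of it Tfap2a, while Cdx2 and Elf5 had at most 2 counts in a library. The 6 neural markers summed to 127 to 137 CPM at 24 h and 145 to 157 CPM at 48 h, and its members went both ways. Sox1, Pax6 and Zic1 rose by 1.31, 1.56 and 1.86 on the log2 scale, while Tubb3, the largest part of the sum, and Nes fell by 0.53 and 0.19. Nes did not pass with DESeq2 (adjusted p = 0.0554) or without replicate 2 or 3 of 48 h (0.0949 and 0.0652). The part of these shifts in the results below was not tested.

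Lefty1 and Lefty2 lie near each other in the same orientation on chromosome 1, and their likeness matters for how their reads could be counted. In GRCm38, the build named in the submitters' processing notes, the GENCODE M21 annotation places Lefty2 at chr1:180893108-180899103 and Lefty1 at chr1:180935022-180938400, both on the plus strand. Their coding sequences are each 1107 bases long and are identical at 1017 positions (91.9%), with no gap. The longest identical stretch is 140 bases long, and no read inside such a stretch can be assigned to one gene. The 120-base stretch with the most differences (coding positions 46 to 165, within 1 exon) is shown for both genes because reads there can be told apart. Capitals mark the 34 positions at which the genes differ, both sequences run 5′ to 3′ on the plus strand, and both come from the GENCODE M21 transcripts.
Lefty1, divergent (chr1:180935155-180935274): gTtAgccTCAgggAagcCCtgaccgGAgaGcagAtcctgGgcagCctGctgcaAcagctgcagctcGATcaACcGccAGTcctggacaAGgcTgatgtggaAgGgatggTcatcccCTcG
Lefty2, divergent (chr1:180893229-180893348): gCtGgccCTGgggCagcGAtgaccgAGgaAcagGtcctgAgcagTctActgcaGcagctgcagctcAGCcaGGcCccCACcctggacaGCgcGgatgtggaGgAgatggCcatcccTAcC

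Between 24 h and 48 h, 9 of the 10 genes changed, 7 of them downward. Among the 10, the 3 feedback inhibitors fell most: Lefty2 was 13.3-fold lower at 48 h, Lefty1 was 3.23-fold lower and Smad7 was 2.51-fold lower. The ligand Nodal fell by 44.2% and the type I receptor Acvr1b fell by 48.2%. Smad3 fell by 17.0% and Tdgf1 fell by 15.0%. The type II receptor Acvr2b rose 1.46-fold, Smad2 rose by 8.96%, and Acvr2a did not pass the test. A gene is called changed when edgeR's quasi-likelihood test, run on all 14889 genes with enough counts, gave a Benjamini-Hochberg adjusted p under 0.05. Under that rule 62.8% of all tested genes changed, 31.9% downward and 30.9% upward, so a share of 9 in 10 is not far from the background. The median log2 fold change of the 10 genes was -0.56, against -0.01 for all tested genes. All 10 had enough counts to be tested, from 50.4 to 7625 in a library. In RNA from whole cultures, fewer cells with a transcript and less of it per cell cannot be told apart.

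**Figure D1:**
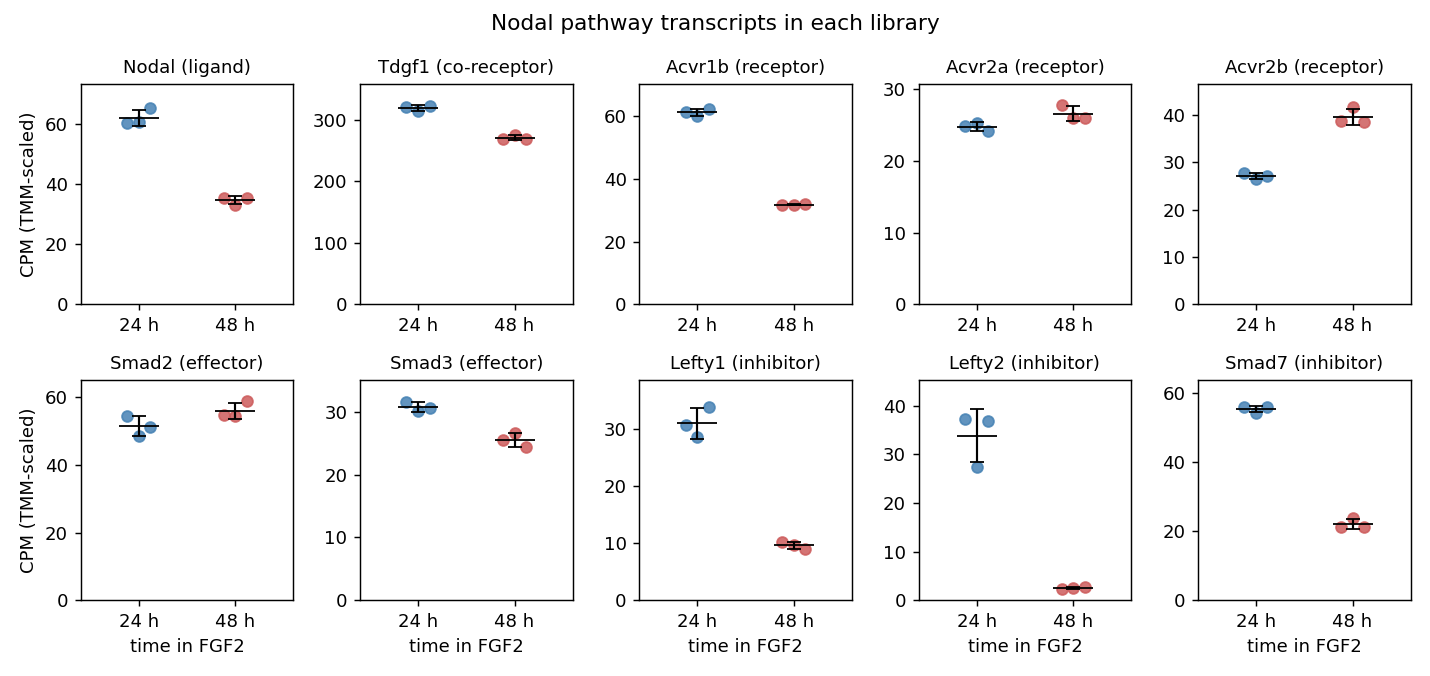
Level of each of the 10 genes, in TMM-scaled CPM (y axis, from 0), at 24 h (blue) and 48 h (red) of FGF2; points are the 3 libraries of a time, the bar is their mean and the whiskers are ± 1 SD. The 2 times do not overlap for any gene except Smad2, and they do not overlap for 66.9% of all tested genes. Lefty2 goes from 27.5 to 37.3 CPM at 24 h to at most 2.83 CPM at 48 h.

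Nodal (ENSMUSG00000037171, chr10:61417972-61425338, plus strand) was at 60.5, 60.6 and 65.2 CPM in the 24 h libraries and at 35.3, 33.2 and 35.5 CPM in the 48 h libraries. The 2 groups were well apart, with the lowest 24 h library above every 48 h library. The means were 62.1 ± 2.69 and 34.6 ± 1.27 CPM (SD, n = 3 libraries each). This is a log2 fold change of -0.84 ± 0.04 (standard error, edgeR adjusted p = 4.47e-11), and 1299 of the 14889 tested genes had a lower one. All Nodal counts were whole numbers, from 726 to 1539 in a library.

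Tdgf1 (ENSMUSG00000032494, chr9:110939603-110946158, minus strand) encodes Cripto, the GPI-anchored co-receptor that Nodal needs. It was by far the most abundant of the 10 transcripts, at 321, 314 and 323 CPM at 24 h and 269, 276 and 268 CPM at 48 h. The groups did not overlap, but the step between them was small beside that of Nodal. The log2 fold change was -0.24 ± 0.02 (standard error, edgeR adjusted p = 3.48e-08). The Tdgf1 counts were fractional. Tdgf1-ps1, a processed pseudogene on chromosome 16, held 9.24% to 9.63% of the summed counts of Tdgf1 and its pseudogene rows. Added up per library, Tdgf1, Tdgf1-ps1 and the empty row of Tdgf1-ps2 gave a whole number in all 6 libraries (within 0.015), so the fractions cancel within this group of rows. Fitted as 1 row, a check added after the data were seen, the group fell by 0.24 on the log2 scale (edgeR adjusted p = 2.46e-08).

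The 3 receptor genes did not move together: Acvr1b fell, Acvr2b rose and Acvr2a did not pass the test. Acvr1b (ENSMUSG00000000532, chr15:101174067-101213684, plus strand), which encodes the type I receptor kinase ALK4, was at 61.5, 60.1 and 62.4 CPM at 24 h. In the 48 h libraries it was at 31.8, 31.6 and 31.9 CPM. Its replicates lay closer together than those of any other of the 10 genes at 48 h, and the times were far apart (log2 fold change -0.95 ± 0.04, standard error, edgeR adjusted p = 1.54e-12).

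Acvr2b (ENSMUSG00000061393, chr9:119402118-119434995, plus strand), one of the type II receptors that bind the ligand first, moved the other way. It was at 27.8, 26.4 and 27.1 CPM at 24 h and at 38.8, 41.6 and 38.4 CPM at 48 h, with every 48 h library above every 24 h library. Its log2 fold change was 0.55 ± 0.05 (edgeR adjusted p = 3.05e-08). Acvr2a (ENSMUSG00000052155, chr2:48814109-48903269, plus strand), the other type II receptor, was at 24.9, 25.3 and 24.1 CPM at 24 h and 27.8, 26.0 and 25.98 CPM at 48 h. These values did not overlap, but they lay close together, and the log2 fold change of 0.10 ± 0.05 did not pass the test (adjusted p = 0.0987). Groups without overlap were found for 66.9% of all tested genes. Exons of Acvr2a overlap those of Orc4 on the opposite strand over 446 bases, and the use of strand in counting is not given in the sources used here.

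The receptor genes were also set against each other within each library, since such a ratio needs no scaling between libraries. Acvr1b had 2.26 ± 0.05 counts per Acvr2b count at 24 h (SD, n = 3) and 0.803 ± 0.038 at 48 h. Acvr2a had 0.915 ± 0.040 counts per Acvr2b count at 24 h and 0.673 ± 0.046 at 48 h. Neither ratio overlapped between the times. A two-sided exact permutation test over libraries gave p = 0.1 for each, the lowest p possible with 3 libraries a time, and also 0.1 after adjustment over the 5 ratios examined.

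The effectors changed little. Smad3 (ENSMUSG00000032402, chr9:63646767-63757994, minus strand) was at 31.6, 30.1 and 30.6 CPM at 24 h and at 25.5, 26.7 and 24.4 CPM at 48 h. The groups were separate, with a log2 fold change of -0.27 ± 0.05 (standard error, edgeR adjusted p = 0.00022). Smad2 (ENSMUSG00000024563, chr18:76241580-76310963, plus strand) was at 54.5, 48.5 and 51.2 CPM at 24 h and at 54.9, 54.4 and 58.8 CPM at 48 h. It was the only one of the 10 genes whose groups overlapped, since 1 library of 24 h lay above 1 library of 48 h. Its log2 fold change of 0.12 ± 0.05 passed the test narrowly (adjusted p = 0.025). The call was lost with library size as the only scaling (0.064, adjusted p = 0.227) and with DESeq2 (0.13, adjusted p = 0.0517). It was also lost when replicate 2 of 24 h (0.086, adjusted p = 0.13), replicate 3 of 24 h (0.12, adjusted p = 0.061) or replicate 3 of 48 h (0.09, adjusted p = 0.126) was left out. The count of Smad2 per Smad3 count was 1.67 ± 0.06 at 24 h and 2.2 ± 0.19 at 48 h (SD, n = 3), with no overlap (exact permutation p = 0.1, adjusted over the 5 ratios 0.1).

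**Figure D2:**
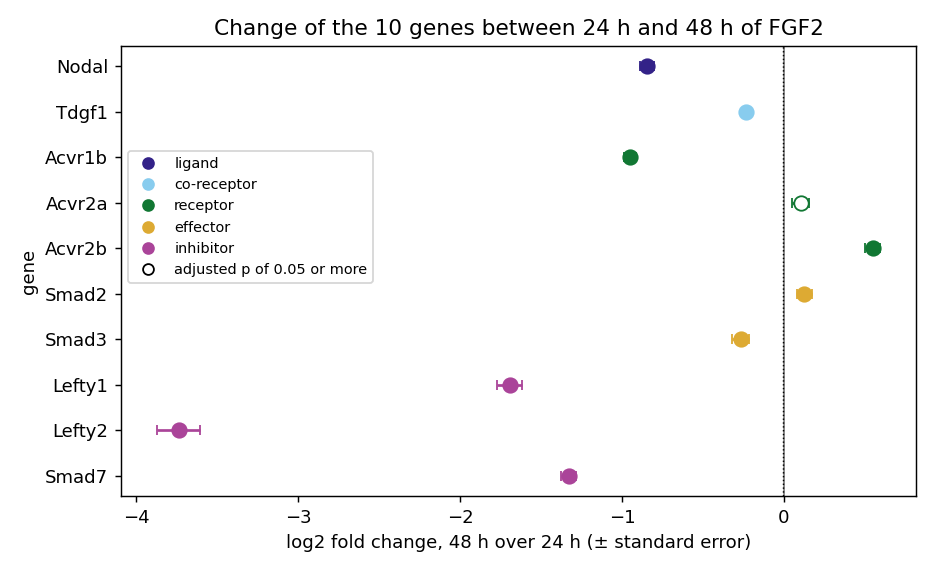
Log2 fold change (x axis, 48 h over 24 h) of the 10 genes with its standard error from edgeR, coloured by role; a hollow point did not pass the adjusted p of 0.05, and the dotted line is the median of all tested genes. The 3 inhibitors lie furthest to the left, from -1.33 for Smad7 to -3.74 for Lefty2, and Acvr2b lies furthest to the right at 0.55.

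The feedback inhibitors showed the largest changes. Lefty2 (ENSMUSG00000066652) was at 37.3, 27.5 and 36.8 CPM at 24 h and at 2.32, 2.47 and 2.83 CPM at 48 h. Every 24 h library was above every 48 h library by a wide margin, although replicate 2 was lower than the other 24 h libraries. The log2 fold change was -3.74 ± 0.13 (standard error, edgeR adjusted p = 3.9e-13), and 25 of the 14889 tested genes had a lower value. Lefty1 (ENSMUSG00000038793) was at 30.6, 28.5 and 33.8 CPM at 24 h and at 10.1, 9.69 and 8.99 CPM at 48 h, again without overlap (log2 fold change -1.69 ± 0.08, adjusted p = 8.51e-12). Both genes thus had like counts at 24 h and unlike counts at 48 h.

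Lefty1 had 0.821, 1.04 and 0.920 counts per Lefty2 count in the 24 h libraries and 4.36, 3.92 and 3.18 in the 48 h libraries. The log2 ratio was higher by 2.03 ± 0.16 (standard error from the libraries) at 48 h, with no overlap (two-sided exact permutation p = 0.1, the smallest possible, adjusted over the 5 ratios 0.1). Put as a share, Lefty2 took 54.9%, 49.1% and 52.1% of the counts of both genes at 24 h and 18.7%, 20.3% and 23.9% at 48 h. All values of both genes were fractional, while their sum was a whole number in each of the 6 libraries (within 0.015). The fractions therefore cancel within these 2 rows. Of all 50-base windows of the longest annotated Lefty1 transcript, 281 of 1571 (17.9%) also occur in a Lefty2 transcript. For 100-base windows the share was 4.8%. The read length is not given in the sources used here, and how RSEM divided the shared reads could move the ratio, while the sum does not depend on it. As a sum, both genes were at 68.0, 56.0 and 70.6 CPM at 24 h and at 12.4, 12.2 and 11.8 CPM at 48 h. Fitted as 1 row this was a log2 fold change of -2.42 ± 0.08 (edgeR adjusted p = 1.49e-13), a 5.35-fold lower mean.

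**Figure D3:**
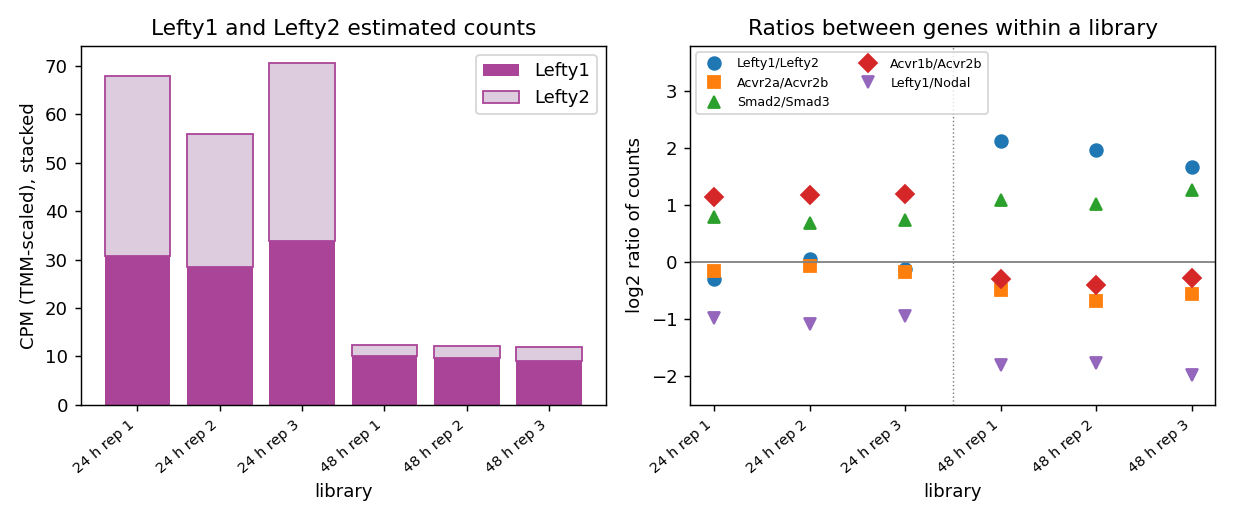
Left, stacked bars of the Lefty1 (dark) and Lefty2 (light) level in TMM-scaled CPM per library; right, the log2 ratio of estimated counts for 5 pairs of the genes in each library, with a dotted line between the times. The Lefty1/Lefty2 ratio is near 0 on the log2 scale in the 24 h libraries, and the raw ratio is between 3.18 and 4.36 in the 48 h libraries, while the Acvr1b/Acvr2b ratio falls through 0.

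Smad7 (ENSMUSG00000025880, chr18:75367529-75395935, plus strand) encodes the inhibitory SMAD that blocks type I receptors. It was at 55.9, 54.3 and 55.9 CPM at 24 h and at 21.1, 23.7 and 21.3 CPM at 48 h. The groups were far apart (log2 fold change -1.33 ± 0.05, standard error, edgeR adjusted p = 3.25e-13). The SD was 1.66% of the mean at 24 h and 6.55% at 48 h. Lefty1, Lefty2 and Smad7 were the 3 of the 10 genes lower by at least 2-fold, which held for 6.63% of all tested genes. Acvr1b lay just short of 2-fold at -0.95 on the log2 scale, and was at -1.01 with library size as the only scaling. None of the 10 was higher by at least 2-fold, which held for 4.59% of all tested genes. Set against the ligand, Lefty1 had 0.498 ± 0.025 counts per Nodal count at 24 h and 0.277 ± 0.021 at 48 h (SD, n = 3). That ratio did not overlap between the times (exact permutation p = 0.1, adjusted over the 5 ratios 0.1).

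Levels of different genes were compared per kilobase of exon, as CPM divided by the length of all annotated exons. At 24 h the order was led by Tdgf1 at 121.8 ± 1.75 CPM per kilobase (SD, n = 3) and Nodal at 29.6 ± 1.28, followed by Lefty1 at 17.6 ± 1.53. Acvr1b, Lefty2 and Smad7 stood next at 13.9 ± 0.26, 13.0 ± 2.12 and 12.2 ± 0.20 CPM per kilobase, and the spread of Lefty2 covered both neighbours. Acvr2b was at 6.90 ± 0.18, Smad2 at 5.86 ± 0.34, Smad3 at 5.55 ± 0.14 and Acvr2a at 4.36 ± 0.11 CPM per kilobase, with Smad2 and Smad3 less than 1 SD apart. At 48 h Tdgf1 (103.5 ± 1.72) and Nodal (16.5 ± 0.61) still led, and Acvr2b had moved to the third place at 10.1 ± 0.44. Acvr1b followed at 7.19 ± 0.04, Smad2 at 6.38 ± 0.27 and Lefty1 at 5.46 ± 0.32 CPM per kilobase. Smad7, Acvr2a and Smad3 followed, each less than 1 SD from the next, at 4.87 ± 0.32, 4.68 ± 0.18 and 4.61 ± 0.21. Lefty2 was last at 0.973 ± 0.0996 CPM per kilobase. The exon length counts every annotated isoform, so a level per kilobase is approximate.

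The upstream sequence of Nodal and Tdgf1 is shown because both the ligand and its co-receptor fell. RefSeq promoter windows (GRCm38.p6) matched 6 of the 10 genes, namely Nodal, Tdgf1, Acvr1b, Acvr2a, Acvr2b and Smad3. The 250 bases before the start site were searched on both strands for the SMAD motif CAGAC, the GC-rich SMAD motif GGCGC, and the FOXH1 motifs AATCCACA and AATACACA. Capitals mark matches, and each window is printed 5′ to 3′ on the strand of its gene.
Nodal, chr10:61417722-61417971, plus strand: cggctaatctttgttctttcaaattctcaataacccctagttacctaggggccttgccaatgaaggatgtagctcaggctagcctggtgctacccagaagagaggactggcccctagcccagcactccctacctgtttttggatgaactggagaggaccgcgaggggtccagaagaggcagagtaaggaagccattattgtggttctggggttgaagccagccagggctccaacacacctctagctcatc
Tdgf1, chr9:110946159-110946408, minus strand: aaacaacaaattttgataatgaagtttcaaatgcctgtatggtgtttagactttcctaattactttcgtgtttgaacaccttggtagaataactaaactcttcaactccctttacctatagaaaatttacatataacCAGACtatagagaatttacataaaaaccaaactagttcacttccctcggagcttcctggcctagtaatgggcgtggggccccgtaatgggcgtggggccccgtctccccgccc
The Nodal window held no match, and the Tdgf1 window held 1 CAGAC, 113 bases before the start site. Acvr2a and Acvr2b, the type II receptor genes, held 1 CAGAC each, with 2 and 3 GGCGC matches. Acvr1b held 4 GGCGC matches, and the Smad3 window held none of the motifs. No FOXH1 motif was found in the 6 windows, and no match of one motif overlapped one of another. Among 32851 windows of this length in the RefSeq table, 42.2% held CAGAC, 32.0% held GGCGC and 1.61% held a FOXH1 motif. A match is a description of letters only, and sequence outside these windows was not searched.

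Other genes of the SMAD2/3 branch were taken from 6 lists grouped by role and chosen with earlier results known, 52 genes in all. Of these, 37 had enough counts to be tested, and 18 fell, 11 rose and 8 did not pass the test. Of all tested genes, 31.9% fell and 30.9% rose, 62.8% together, and the counts of each list below stand beside these shares. The median log2 fold change of the 37 was -0.19, against -0.01 for all tested genes.

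Among the other ligands, 8 of 11 were tested, 4 fell and 3 rose. The list also holds Inha, the alpha subunit of inhibin, which did not pass the test (edgeR adjusted p = 0.315). Inhbb, the beta B subunit of activin, was at 30.7 ± 1.01 CPM (SD, n = 3) at 24 h and 4.97 ± 0.44 CPM at 48 h. It fell by 2.62 ± 0.08 on the log2 scale (standard error, edgeR adjusted p = 3.58e-14). Tgfb1 fell from 9.77 ± 0.49 to 3.44 ± 0.35 CPM, and Inhbe and Tgfb2 fell from levels of 3.39 and 1.05 CPM. Gdf3, a Nodal-related ligand of pluripotent cells that also uses Cripto, had the highest counts of the list. It was at 141 ± 1.3 and 153 ± 3.52 CPM, a small rise (0.12 on the log2 scale, adjusted p = 0.000638). Gdf11 rose from 1.72 to 2.57 CPM. With DESeq2, Gdf11 and Tgfb2 did not pass (adjusted p = 0.0601 and 0.0814), and Tgfb2 also lost its call without replicate 3 of 24 h, replicate 2 of 48 h or replicate 3 of 48 h (adjusted p of 0.057 to 0.0808). Gdf1, the partner with which Nodal forms heterodimers, rose from 0.295 ± 0.259 to 2.73 ± 0.90 CPM, but its whole exon sequence is shared with Cers1 on the same strand and its counts were fractional, so this value is uncertain. Inhba, the beta A subunit of activin, had at most 2 counts in a library and was too low to test.

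Of 9 genes for ligand processing and extracellular inhibitors, 7 were tested, 4 fell and 1 rose. The one that rose was Fstl3, a relative of follistatin, at 0.255 ± 0.209 and 0.685 ± 0.085 CPM (SD, n = 3; 1.36 on the log2 scale, edgeR adjusted p = 0.0227). It lost its call with DESeq2 (adjusted p = 0.055) and without replicate 1 or 2 of 24 h or replicate 1 or 2 of 48 h, ranged from 0.89 to 2.16 without 1 library, and its exons overlap Prss57 on the opposite strand over 1157 bases. Pcsk6 (PACE4), a convertase that cleaves the Nodal precursor, was at 133 ± 1.89 CPM at 24 h (SD, n = 3) and 54.6 ± 1.68 CPM at 48 h, and fell by 1.28 ± 0.03 on the log2 scale (edgeR adjusted p = 2.62e-15). Furin, the other convertase known to act on Nodal, was at 16.9 ± 0.35 and 14.6 ± 1.19 CPM (-0.20 on the log2 scale, adjusted p = 0.0267). It lost its call with DESeq2 and without replicate 1 or 2 of 24 h or replicate 2 or 3 of 48 h, with adjusted p of at most 0.115. The activin antagonist Fst was at 21.0 ± 1.43 and 16.7 ± 1.29 CPM and fell by 0.34 on the log2 scale (adjusted p = 0.000794). Cer1, a secreted Nodal antagonist, was at 0 counts in all 6 libraries, and the antagonist Dand5 was at 1.57 and 1.83 CPM and did not pass the test.

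Of 5 other receptors, 3 were tested and 1 fell. Tgfbr2, the type II receptor for TGF-beta, fell from 1.89 ± 0.24 to 0.168 ± 0.140 CPM, with 34 to 51 counts in a 24 h library and 1 to 7 in a 48 h library (edgeR adjusted p = 1.08e-06). Tgfbr1, the type I receptor for TGF-beta, was at 66.7 ± 1.93 and 65.8 ± 2.09 CPM and did not pass the test (log2 fold change -0.02 ± 0.04, adjusted p = 0.682). The alternative type I receptor Acvr1c (ALK7) and the second co-receptor gene Cfc1 had at most 1 count in a library.

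Inside the cell, none of the 5 transducers and nuclear partners fell, and 3 rose. Foxh1, the forkhead partner of SMAD2 and SMAD3, was at 43.2 ± 0.44 CPM at 24 h (SD, n = 3) and 60.5 ± 1.6 CPM at 48 h, a rise of 0.49 ± 0.04 on the log2 scale (edgeR adjusted p = 7.07e-09). Trim33, a chromatin reader that binds activated SMAD2 and SMAD3, was at 142 ± 1.56 and 234 ± 8.57 CPM, a rise of 0.72 ± 0.03 (adjusted p = 7.28e-13). Smad4 was at 100.8 ± 2.97 and 107.7 ± 2.59 CPM. Its log2 fold change of 0.09 passed the test (adjusted p = 0.0136) but not with library size as the only scaling (0.034, adjusted p = 0.347) or when replicate 1 of 24 h (0.07, adjusted p = 0.079) or replicate 2 of 48 h (0.082, adjusted p = 0.0601) was left out.

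All 12 intracellular inhibitors were tested, and they split: 7 fell and 4 rose. One of the 7, Tgif1, was at -0.07 on the log2 scale and lost its call with DESeq2 (adjusted p = 0.124) and when replicate 2 of 24 h (0.0595) or replicate 1 of 48 h (0.0688) was left out. Skil (SnoN), a corepressor of SMAD2 and SMAD3 and a known target of the pathway, was at 93.6 ± 5.62 CPM at 24 h (SD, n = 3) and 272.5 ± 2.45 CPM at 48 h, a rise of 1.54 ± 0.03 on the log2 scale (edgeR adjusted p = 3.88e-16). Its paralog Ski fell by 0.46 on the log2 scale, from 141 ± 4.77 to 102 ± 3.61 CPM. Tgif2 rose by 0.58 on the log2 scale with fractional counts, and its exons overlap genes on the opposite strand over 2360 bases. Smurf2 and Ppm1a rose by 0.20 and 0.37. Pmepa1, a feedback gene that keeps SMAD2 and SMAD3 from the receptor, was at 16.5 ± 0.42 and 7.36 ± 0.71 CPM and fell by 1.17 ± 0.09 (adjusted p = 4.54e-09). Ldlrad4, a relative of Pmepa1, had a log2 fold change of -1.19 from a level of 1.29 CPM, with 10 to 34 counts in a library. Its exons overlap Fam210a and Mir7219 on the opposite strand over 2852 bases. With the use of strand not given, the values of Ldlrad4 and Tgif2 are uncertain. Dact2, which promotes the turnover of Nodal receptors, was at 31.6 ± 0.27 and 15.4 ± 0.28 CPM and fell by 1.04 ± 0.05 (adjusted p = 4.17e-11).

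Of 10 mesendoderm genes known as targets of Nodal in the embryo, 2 were tested and both fell. Eomes, a T-box factor of mesendoderm, was at 16.1 ± 1.35 CPM at 24 h (SD, n = 3) and 13.2 ± 1.05 CPM at 48 h, and fell by 0.29 on the log2 scale (edgeR adjusted p = 0.00705). Mixl1, Gsc, Foxa2, Lhx1, Sox17, Mesp1, Evx1 and T (brachyury) never exceeded 11 counts in a library and were not tested.

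**Figure D4:**
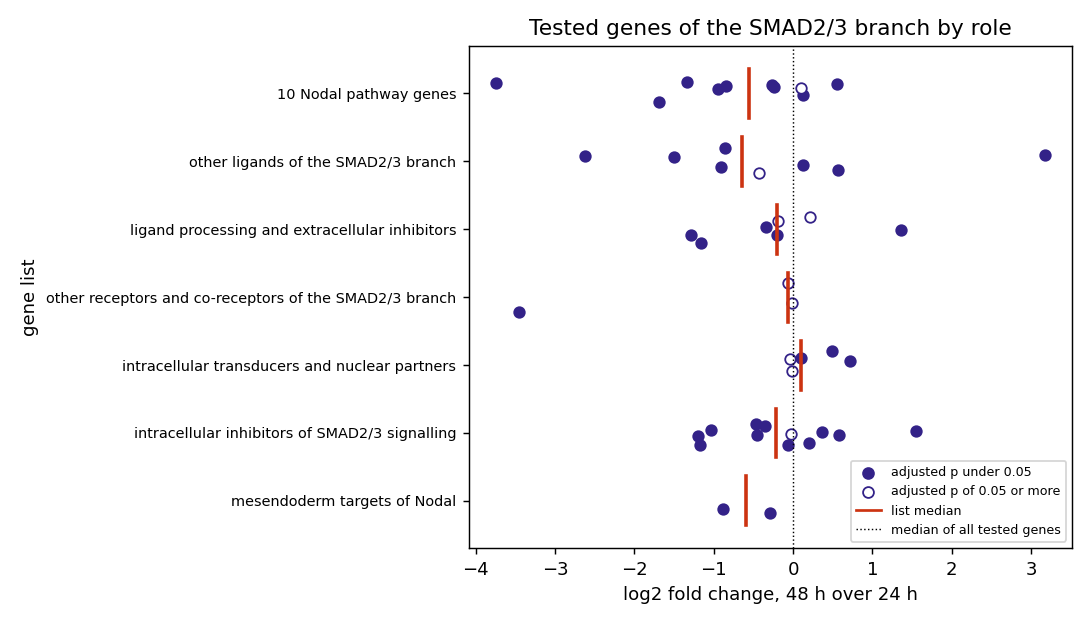
Log2 fold change (x axis, 48 h over 24 h) of every tested gene of the 10 Nodal pathway genes and of the 6 lists of the SMAD2/3 branch (y axis, points spread vertically for legibility); filled points passed the adjusted p of 0.05 in edgeR, red lines are list medians and the dotted line is the median of all tested genes. The transducers and nuclear partners hold no filled point left of 0, while the intracellular inhibitors lie on both sides, from -1.19 to 1.54.

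The genes with the pattern most like that of Nodal, Tdgf1 and Lefty1 were searched among 10418 genes whose mean level reached 5 CPM. Likeness was the root mean square difference of log2 CPM over the 6 libraries, after each gene was centred on its own mean. Closest to Nodal were Tacc2, Dpysl3 and Fam129b, with differences of 0.017, 0.018 and 0.023 on the log2 scale. Closest to Tdgf1 were Mtr, Usp32 and Nudt16l1, with differences of 0.012, 0.013 and 0.013. Closest to Lefty1 were Zfp59, Ngfr and Jak3, with larger differences of 0.057, 0.063 and 0.064. With 2 times, such likeness mostly means a like change between them.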

How the data were processed

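Per the labels, total RNA of R1 cells came from RNeasy columns, and the library kit was KAPA mRNA HyperPrep. In the deposited table the authors give RSEM's estimated counts for each gene, unscaled for depth or length, with 1 column per sample. The submitters' processing notes name cutadapt 1.9.1, STAR 2.5.2, RSEM 1.3.0 and the build GRCm38. The annotation, strand setting and read length are not given in the sources used here. Every column matched 1 sample title.

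Counts were rounded, filtered with filterByExpr (minimum count 10), TMM-scaled and compared with edgeR 4.0.16 (glmQLFit, glmQLFTest, R 4.3.3), group as the only term. CPM are estimated counts per TMM-scaled library, and a standard error is the fold change divided by the square root of F. Ratios within libraries had 0.5 counts added for the test. The fit was also run on simulated counts in which a small part of the genes changed. Far more genes were called in these data, so that run is not used as support here. The 10 genes and all lists were chosen with earlier results of these data known. Named genes are the 10, any listed gene, and the 3 nearest patterns for Nodal, Tdgf1 and Lefty1. Symbols, exon lengths and positions are from GENCODE M21, where 51633 identifiers had a symbol. Alternatives were RLE scaling, library size only, 2 other filters, DESeq2 1.42.0, limma 3.58.1 (voom), unrounded counts, a replicate block, a stricter threshold, a fold minimum, summed Lefty rows and leaving out each library. Summing Tdgf1 with its pseudogenes was added after seeing the data. The values of 1 listed gene and 1 sequence are not reported here.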

Additional observations from a re-analysis of the deposited data

How the results depend on the processing

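Of the 142 alternative values of the 10 genes, 137 kept direction and call. The other 5 are those of Smad2, which kept its direction but lost its call with library size only (0.064, adjusted p = 0.227) and DESeq2 (0.13, adjusted p = 0.0517), and without 1 library ranged from 0.086 to 0.165, with 3 of 6 such fits losing the call. The number of genes higher at 48 h was accordingly 1 instead of 2 with library size only and with DESeq2, and 1 to 2 without 1 library. The number lower stayed at 7 in every fit, and 3 of the 10 changed by at least 2-fold in the main fit. Acvr1b was at -0.95 there and passed 2-fold with library size only, at -1.01. The replicate block called 9 of the 10 genes and 29 listed pathway genes, the same numbers as without it (Nodal -0.84, Smad2 0.13). Deviations of same-numbered libraries correlated at -0.05, -0.04 and -0.01, so no shared deviation by replicate number was seen. Whether same-numbered libraries share a culture or batch cannot be told from this. With library size only the all-gene median was -0.07 in place of -0.01, and 39.9% in place of 49.2% of called genes were higher. Between 24 and 32 listed pathway genes were called over the other fits. Listed genes reversed 4 times, none of them called. Without 1 library, Tgfbr1 ranged from -0.037 to 0.0088 (above 0 without replicate 2 of 24 h, at 0.0043, and without replicate 1 of 48 h), Zfyve9 from -0.062 to 0.018 (without replicate 1 of 48 h) and Smurf1 from -0.048 to 0.0040 (without replicate 2 of 48 h). At this depth 15 of the 52 listed pathway genes did not reach the count filter, and low expression and limited depth cannot be told apart there.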

Other observations

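The spread between replicates differed among the 10 genes. At 24 h Lefty2 had a coefficient of variation of 16.3%, 4.39 times that of counting noise alone, and Lefty1 had 8.69%, 2.24 times. At 48 h both were below counting noise, at 0.764 and 0.852 times. Smad2 was at 1.93 times at 24 h and 1.5 times at 48 h. Of the other genes, Nodal reached 1.58 times at 24 h and Smad7 1.44 times at 48 h, while Acvr1b was at 0.131 times at 48 h. With 3 libraries these values are themselves imprecise.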
